A study of Homo sapiens with 4 samples.

Results

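The AP-1 family described here is the set of 8 genes JUN, JUNB, JUND, FOS, FOSB, FOSL1, FOSL2 and BATF, chosen by name, each through the probe set whose only gene symbol in the platform annotation is that name. All 8 had 1 such probe set and none shared it with another gene, of 18417 genes represented on the array in this way. Total RNA was profiled on 4 arrays. U266, a multiple myeloma line, received 15 µM atovaquone for 2 h or the DMSO vehicle for 2 h, and K562, a chronic myeloid leukaemia line, received 20 µM atovaquone for 5 h or DMSO for 5 h. Atovaquone is an antimalarial that inhibits respiratory complex III. Each group was 1 array of 1 cell line, so there was no replicate, no test or p-value could be given, and a ratio says how 2 single arrays differed.

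AP-1 is a transcription factor made of paired basic leucine zipper proteins. JUN, JUNB and JUND can pair with one another or with a FOS protein, whereas FOS, FOSB, FOSL1 and FOSL2 need a JUN partner to bind DNA. JUN, FOS, FOSB and JUNB are classical immediate early genes, transcribed from pre-existing factors within minutes of a stimulus, and JUN protein is activated by the stress kinase JNK. BATF is a short family member that pairs with JUN proteins, has no transactivation domain of its own, and is best known in lymphoid cells.

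The value of each probe set is the authors' deposited intensity on a linear scale. An intensity under the array's 40th percentile was treated as a bound. These floors were 324 and 331 on the U266 atovaquone and vehicle arrays, and 306 and 305 on the K562 atovaquone and vehicle arrays. Array medians lay between 314 and 340. Log2 ratios were centred on the median ratio of all probe sets above the floor, which removes any shift shared by most genes. As a check of the lines, all 9 plasma cell markers were above the floor on both U266 arrays and 6 on both K562 arrays, with summed intensities of 40828 with atovaquone and 39266 with vehicle in U266, and of 5744 with atovaquone and 4927 with vehicle in K562. Between the vehicle arrays, 8 of the 9 were at least 1.5-fold higher in U266. The other 1, CD38, was lower there, at 396 in U266 against 668 in K562. All 7 erythroid markers with a probe set were above the floor on both K562 arrays and 4 on both U266 arrays. Their summed intensities with vehicle were 21851 in K562 and 2890 in U266. Of 7 markers of other cells, 3 were above the floor on both U266 arrays and 5 on both K562 arrays. In bulk RNA of 1 cell line, a change in some cells and a smaller change in all cannot be told apart.

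The promoters of the 3 members with the largest U266 ratios, JUN, FOS and FOSL2, are shown because these ratios stand out in the values below. Each sequence is the 250 bases before the transcription start in RefSeq on GRCh38.p14, read 5′ to 3′ toward the gene. Promoter entries matched 7 of the 8 members by symbol, FOSL1 being the other one. Capitals mark matches, on either strand, to a CRE core (TGACG, or CGTCA on the other strand), the AP-1-like site known from the JUN promoter (TGACATCA), a heat shock element core (GAANNTTC) or a TATA box core (TATAAA).
JUN (chr1:58784048-58784297, minus strand): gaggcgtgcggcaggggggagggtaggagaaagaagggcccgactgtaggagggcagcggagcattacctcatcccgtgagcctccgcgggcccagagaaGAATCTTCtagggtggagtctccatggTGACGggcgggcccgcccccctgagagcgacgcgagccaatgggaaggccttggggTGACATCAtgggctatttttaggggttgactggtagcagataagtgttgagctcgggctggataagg
FOS (chr14:75278578-75278827, plus strand): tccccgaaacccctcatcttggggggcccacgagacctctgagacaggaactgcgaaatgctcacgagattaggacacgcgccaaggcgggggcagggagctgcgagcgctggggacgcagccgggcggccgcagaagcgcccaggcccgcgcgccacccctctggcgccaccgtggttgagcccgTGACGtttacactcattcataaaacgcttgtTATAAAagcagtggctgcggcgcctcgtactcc
FOSL2 (chr2:28392608-28392857, plus strand): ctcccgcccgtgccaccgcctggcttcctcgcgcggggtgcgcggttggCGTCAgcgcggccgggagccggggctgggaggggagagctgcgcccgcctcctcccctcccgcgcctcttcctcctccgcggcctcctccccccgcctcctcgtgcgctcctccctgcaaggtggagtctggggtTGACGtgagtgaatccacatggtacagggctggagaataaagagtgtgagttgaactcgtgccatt

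The CRE, the cAMP response element bound by CREB and ATF proteins, is TGACGTCA in full and contains the core on both strands. The core was found in the windows of 6 of 7 members, JUN, JUNB, JUND, FOS, FOSB and FOSL2, against 24.5% of 35093 promoter windows. All windows have the same length of 300 bases and run 250 bases before to 50 after the start. They were not matched for base composition. The share of G and C in the 250 bases before the start ran from 62.0% in JUN to 74.8% in JUND among these 6, and was 43.2% in BATF. Whether this bears on the count was not tested. The full CRE was found in JUND, at 200 bases before the start, against 1.85% of windows. The JUN AP-1-like site lay in JUN at 67 bases before the start, and 2.61% of all windows had it. This motif was taken from the JUN promoter, so its match there was given in advance. The canonical AP-1 site, TGANTCA, was found in FOSL2, as TGACTCA starting at base 5 after the start, against 7.71% of windows. The heat shock element core was found in JUN and BATF, against 6.77% of windows, and the TATA box core in JUNB, FOS and FOSB, against 11.5%. No CArG box, the serum response factor site, was found in the 7 windows, against 1.29% of all windows. A count of 0 among 7 is near that background. Sites more than 250 bases before the start were not searched, so this does not show that a member lacks one.

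In FOS, FOSL2 and FOSB a CRE core began 60 to 67 bases before the start, a stretch chosen after the matches were seen. In JUN the AP-1-like site began there, a motif taken from the JUN promoter itself. The CRE core of JUN began 123 bases before the start, outside the stretch. Of all windows, 1.46% had either site in that stretch, which is a description and not a test. The members are set beside each other in windows of 30 bases, with the matched site in capitals. For JUND and JUNB the core nearest the start is shown, at 86 and 137 bases before it. JUND is written on the strand opposite to its gene so that the core reads the same way.
JUN (chr1:58784097-58784126, minus strand): aaggccttggggTGACATCAtgggctattt
FOS (chr14:75278752-75278781, plus strand): tggttgagcccgTGACGtttacactcattc
FOSL2 (chr2:28392780-28392809, plus strand): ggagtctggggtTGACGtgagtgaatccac
FOSB (chr19:45467924-45467953, plus strand): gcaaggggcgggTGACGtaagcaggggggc
JUND (chr19:18281692-18281721, plus strand): attgggtgcgggTGACGtcgctcatttgca
JUNB (chr19:12791337-12791366, plus strand): gcttcctgacagTGACGcgagccgcctcct
The 3 bases after the core differed between members, with TGACGTTT in FOS, TGACGTGA in FOSL2, TGACGTAA in FOSB, TGACGTCG in JUND and TGACGCGA in JUNB. These matches describe the letters in the window and were not measured as binding in these cells.

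**Figure D1:**
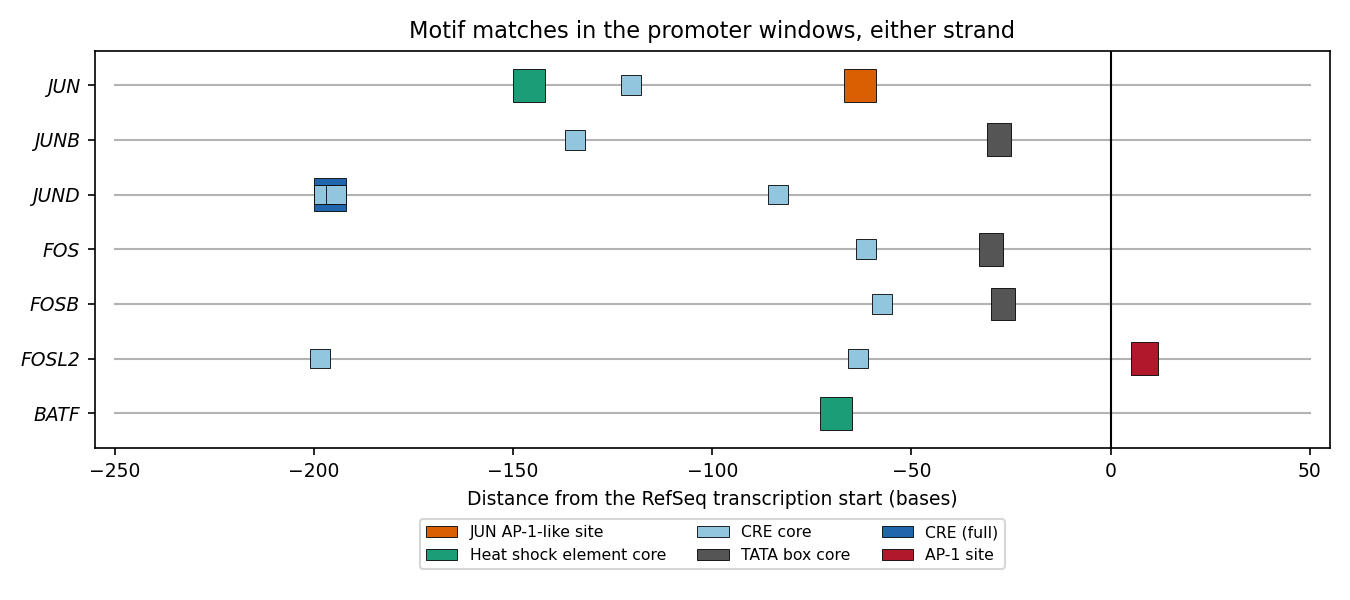
Motif matches on either strand in the promoter windows of 7 members, plotted by distance in bases from the RefSeq transcription start at 0, with coloured boxes for the motifs. JUN, FOS, FOSB and FOSL2 each have a box that begins 60 to 67 bases before the start, a stretch chosen after the matches were seen. That box is a CRE core in FOS, FOSB and FOSL2, and in JUN the AP-1-like site, a motif taken from the JUN promoter itself. The FOSB and FOSL2 boxes do not overlap. BATF has no CRE core.

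In U266 cells, 4 of the 8 members were at least 1.5-fold higher after 2 h of atovaquone than with vehicle, and the number at least 1.5-fold lower was 0. The 4 were JUN, FOS, FOSL2 and JUND, so they included members of both the JUN and the FOS branch. Of 11264 genes with a ratio or bound in U266, 113 were at least 1.5-fold higher (1.00%) and 16 at least 1.5-fold lower (0.142%). The median log2 ratio of the 8 members was at least 0.55, with FOS and FOSB at their lower bounds, against 0.00 over all these genes.

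JUN, the founding subunit of AP-1 and itself an AP-1 target, had an intensity of 3977 on the U266 atovaquone array and 385 on the U266 vehicle array. In K562 it had 657 with atovaquone and 484 with vehicle. The U266 atovaquone array stood 6.05-fold above the next one in uncentred intensity, and the other 3 arrays lay within 1.36-fold and 1.26-fold of their neighbours in the order K562 atovaquone, K562 vehicle, U266 vehicle. The centred log2 ratio was 3.38 in U266, a 10.4-fold difference and rank 1 from the top of 10731 genes above the floor on both U266 arrays. Genes under the floor with vehicle have no rank, and among them the orphan nuclear receptor gene NR4A2 had a lower bound of 3.88, above the JUN ratio. On the U266 vehicle array JUN was little above the floor. A floor raised to the 60th percentile turned its U266 log2 ratio into a lower bound of 2.57.

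JUNB, an AP-1 subunit with weaker transactivation than JUN, had an intensity of 2116 on the U266 atovaquone array and 1606 on the U266 vehicle array. The K562 arrays had 1233 with atovaquone and 1566 with vehicle. The arrays were thus much closer together than for JUN, with 1.72-fold between the highest and the lowest. The log2 ratio was 0.41 in U266 and −0.34 in K562, both short of 1.5-fold. The sign differed between the lines, in which dose and time differed as well.

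JUND, which is expressed constitutively in many tissues, had an intensity of 1614 on the U266 atovaquone array and 999 on the U266 vehicle array. K562 cells had 1689 with atovaquone and 1577 with vehicle. The U266 vehicle array was the one that stood apart, 1.58-fold below its nearest neighbour, while the other 3 lay within 1.05-fold and 1.02-fold steps. The U266 log2 ratio was 0.70, a 1.63-fold difference. Among the 10731 genes above the floor on both U266 arrays it ranked 66 from the top, genes with a bound being left out. JUND was the member nearest above the 1.5-fold mark.

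FOS, the prototype immediate early gene, had an intensity of 1411 on the U266 atovaquone array and 239 on the U266 vehicle array, the second of which was under the floor. It was therefore at least 4.30-fold higher with atovaquone, a lower bound of 2.10 on the log2 scale. In K562 FOS had 419 with atovaquone and 389 with vehicle, both above the floor. The bound moved with the floor by construction, to 1.07 under the 60th percentile, and a floor at the 20th percentile or none gave a log2 ratio of 2.58.

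FOSL2, which encodes the FOS-related protein FRA2, had an intensity of 1770 on the U266 atovaquone array and 516 on the U266 vehicle array. The K562 values were 327 with atovaquone and 398 with vehicle. The U266 atovaquone array stood 3.43-fold above the next, and the other 3 arrays followed in steps of 1.29-fold and 1.22-fold. The log2 ratio in U266 was 1.79, a 3.46-fold difference. Among the 10731 genes above the floor on both U266 arrays it ranked 11 from the top. Genes with a bound have no rank, and the FOS bound of 2.10 was above the FOSL2 ratio.

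FOSL1, which encodes FRA1, a FOS-related protein often induced later than FOS in other cells, had an intensity of 870 on the U266 atovaquone array and 1052 on the U266 vehicle array. In K562 it had 1235 with atovaquone and 1535 with vehicle. Its log2 ratio was −0.26 in U266, where FOS and FOSL2 were higher, and −0.30 in K562, and neither reached 1.5-fold. Both K562 arrays were above both U266 arrays, in steps of 1.24-fold, 1.17-fold and 1.21-fold from the highest down.

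FOSB, a FOS paralogue that is also an immediate early gene, had 432 on the U266 atovaquone array against 300, under the floor, with vehicle, and was at least 1.31-fold higher. In K562 FOSB had 285, under the floor, with atovaquone and 338 with vehicle, and was at least 1.10-fold lower. FOSB thus stayed near the floor on all 4 arrays.

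BATF had an intensity of 503 on the U266 atovaquone array and 557 on the U266 vehicle array, a log2 ratio of −0.14. In K562 it had 236 with atovaquone and 252 with vehicle, both under the floor, so that no K562 ratio was given. BATF was thus above the floor in the myeloma line and not in the leukaemia line. BATF and FOS are neighbours on chromosome 14, with JDP2, a repressor that pairs with JUN proteins, as the single protein-coding gene between them in the RefSeq order. Neither JDP2 nor BATF reached 1.5-fold in U266, where FOS did, and JDP2 had 414 with atovaquone against 360 with vehicle, a log2 ratio of 0.21.

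**Figure D2:**
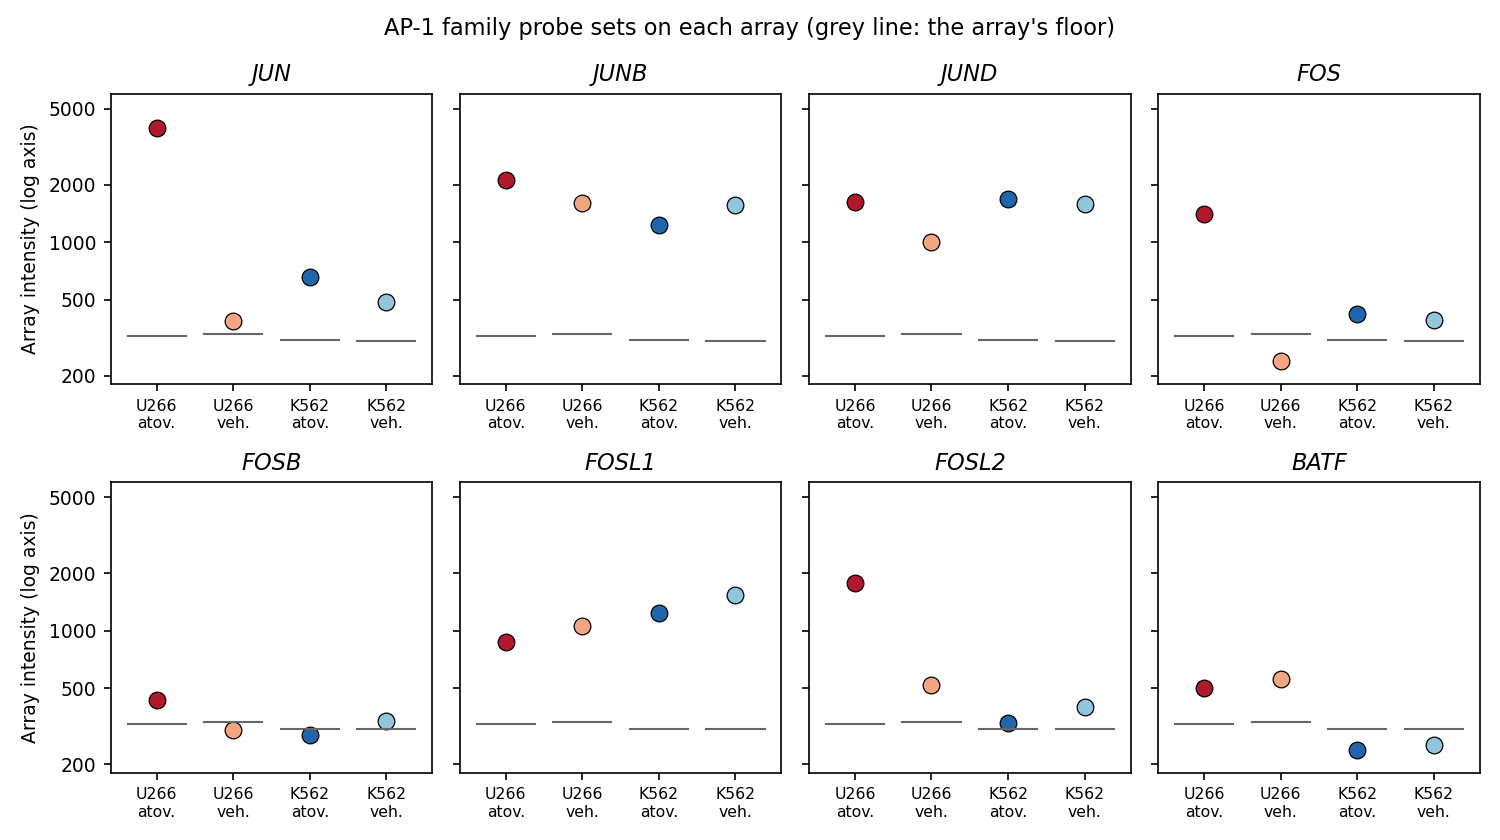
Array intensity on a log axis for each of the 8 members on each of the 4 arrays, 1 point per array, with a grey line at that array's floor. JUN, FOS and FOSL2 have a single high array, U266 with atovaquone, at 3977, 1411 and 1770, whereas the JUNB arrays lie within 1.72-fold of one another.

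In K562 cells, 0 of the 7 members with a ratio or bound were at least 1.5-fold higher after 5 h of atovaquone, and none reached 1.5-fold in the other direction. Of 11353 genes, 182 were at least 1.5-fold higher (1.60%) and 75 at least 1.5-fold lower (0.661%), so a count of 0 among 7 genes is near that background. JUN had the highest K562 log2 ratio of the family at 0.45, followed by FOS at 0.12 and JUND at 0.11. JUNB, FOSL1 and FOSL2 lay at −0.34, −0.30 and −0.27. The median of the 7 was −0.13 or lower, since it fell on the upper bound of FOSB, against 0.00 over all genes. JUN was under a floor at the 60th percentile on the K562 vehicle array and then had a lower bound of 0.03.

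The spread of the whole table gives a scale for these ratios. The central 95% of log2 ratios ran from −0.28 to 0.34 over 10731 genes in U266 and from −0.42 to 0.48 over 10756 genes in K562. In U266 the ratios of JUN, FOSL2, JUND and JUNB and the bounds of FOS and FOSB lay above that range, and FOSL1 and BATF within it. In K562 the 6 members measured on both arrays lay within it. Between probe sets of the same gene, the log2 ratio of 1 probe set had an SD of 0.10 in U266, over 399 genes, and of 0.12 in K562, over 417 genes. That SD holds no spread between cultures, which 1 array per group does not show.

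**Figure D3:**
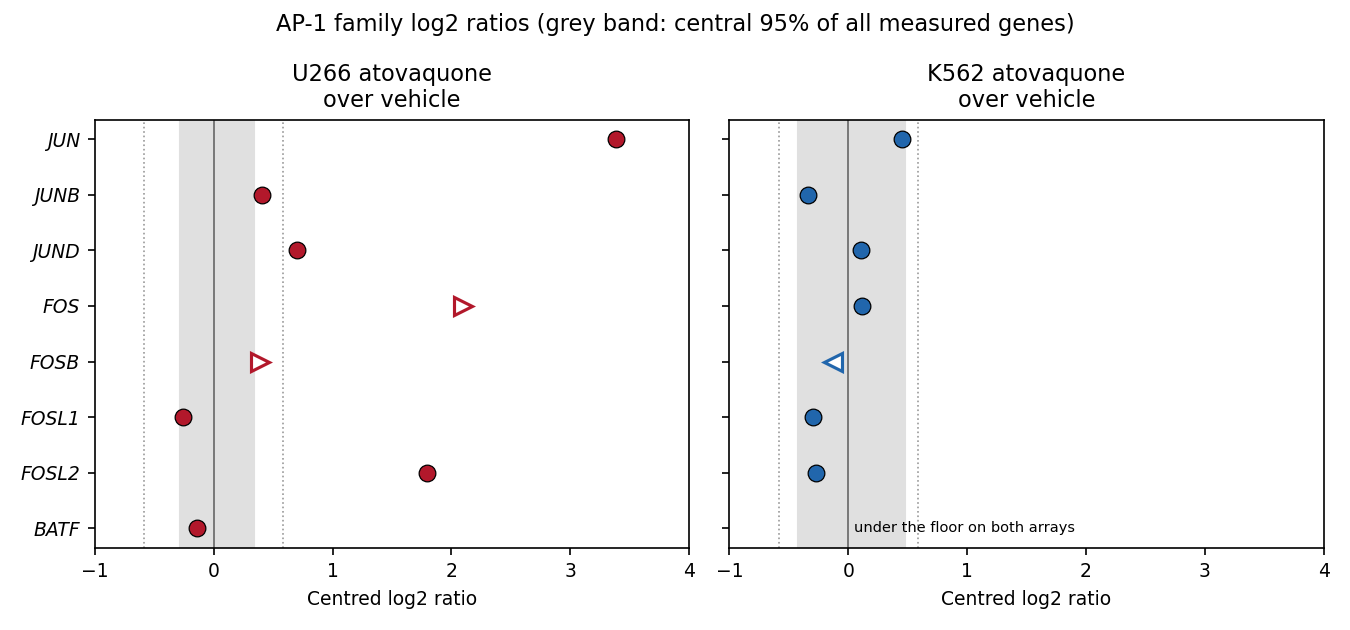
Centred log2 ratio of atovaquone over vehicle for each member in U266 (red) and K562 (blue), with filled points for ratios measured on both arrays, open triangles for bounds, dotted lines at 1.5-fold and a grey band for the central 95% of all measured genes. In U266 JUN at 3.38, FOSL2 at 1.79 and the FOS bound at 2.10 lie far right of the band, and in K562 no point leaves it.

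The vehicle arrays set the starting levels of the lines side by side, with DMSO for 2 h in U266 and 5 h in K562. BATF was at least 1.87-fold higher in U266, at 557 against 252 in K562, and JUND was 1.54-fold lower in U266, at 999 against 1577. These were the 1 member at least 1.5-fold higher and the 1 at least 1.5-fold lower. Among 12574 genes, 21.3% were at least 1.5-fold higher and 17.3% at least 1.5-fold lower in U266. Differences of that size between the lines were thus common in the whole table. FOSL1 had a log2 difference of −0.51 between U266 and K562, JUN −0.30, FOSL2 0.41 and JUNB 0.07. FOS was under the floor in U266 at 239 against 389 in K562, and at least 1.15-fold lower.

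The genes nearest in pattern to each member were found by the Euclidean distance over the 4 arrays between log2 intensities after each gene's mean was subtracted, among 9222 genes above the floor on every array. For JUN they were DUSP1, a MAP kinase phosphatase, at a distance of 0.65, the small GTPase gene RHOB at 0.84, and FOSL2 at 1.26. RHOB had 1933 with atovaquone against 357 with vehicle in U266, and 456 with atovaquone against 498 with vehicle in K562. For FOSL2 the nearest were ZFP36, whose protein promotes decay of AU-rich mRNAs such as that of FOS, at 0.45, the galactosidase gene GLA at 0.53 and the co-chaperone gene DNAJB1 at 0.58. For JUND they were ZNF473 at 0.11, TAF1A at 0.18 and RP9P at 0.19, with U266 log2 ratios of 0.61, 0.45 and 0.47. JUNB was nearest to SNORA80E at 0.05, and FOSL1 to MPV17L2 at 0.05. Small distances are common among genes that vary little, so these values describe likeness in 4 arrays and nothing more.

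Other basic leucine zipper genes that pair with JUN or FOS proteins were mostly flat in both lines. For this list and those below, the shares of all genes at least 1.5-fold higher were 1.00% in U266 and 1.60% in K562. The shares at least 1.5-fold lower were 0.142% in U266 and 0.661% in K562. The lists were chosen with earlier results of these data known. Of 11 listed genes, 8 had a value in U266, of which 1 was at least 1.5-fold higher and 0 lower, with a median log2 ratio of −0.01. In K562, 8 had a value, again 1 higher and 0 lower, with a median of −0.03. The 1 gene was ATF3 in both lines, a stress-induced partner of JUN. ATF3 had 1954 with atovaquone against 243, under the floor, with vehicle in U266, at least 5.95-fold higher. In K562 it had 1086 with atovaquone against 105, also under the floor, with vehicle, and was at least 3.58-fold higher. ATF3 thus had a bound past 1.5-fold in K562, where JUN and FOS had not. BATF2 lay at −0.25 in U266, and ATF2, a partner of JUN at CRE sites, at 0.02 in U266 and −0.24 in K562. JDP2 was 10.8-fold lower in U266 than in K562 vehicle cells, at 360 in U266 against 3971 in K562.

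Genes of the MAP kinase pathways that act on JUN and FOS had no member past 1.5-fold in either drug comparison. Of 24 listed genes, 18 had a value in U266 with a median log2 ratio of 0.02, and 17 in K562 with a median of −0.06. The JNK genes MAPK8 and MAPK9 stood at 0.01 and 0.01 in U266 and at 0.16 and 0.02 in K562, and MAP3K1, a kinase upstream of JNK, led in U266 at 0.43. These are mRNA levels, and kinase activity was not measured. Factors that bind the FOS and JUN promoters also had 0 of 9 past 1.5-fold in U266 and 0 of 10 in K562. Over all genes, 1.00% in U266 and 1.60% in K562 were at least 1.5-fold higher, and 0.142% and 0.661% lower. Counts of 0 in lists as short as these are near that background. SRF, the serum response factor, lay at −0.24 in U266 and −0.32 in K562, and CREB1 at 0.00 in U266 and 0.04 in K562.

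Genes that act on the turnover of JUN and FOS proteins or mRNAs, most of them in decay and some in stabilisation, such as ELAVL1, had 2 of 14 measured members at least 1.5-fold higher in U266 and 1 of 14 in K562, with 0 lower in either. In U266 these were the mRNA decay factor genes ZFP36, at 2143 with atovaquone against 893 with vehicle, and ZFP36L1, at 1451 with atovaquone against 756 with vehicle. In K562 ZFP36L1 was at 1703 with atovaquone against 1014 with vehicle, a log2 ratio of 0.76, while ZFP36 lay at −0.39. FBXW7 and COP1, which mark JUN protein for degradation, lay at 0.15 and 0.18 in U266.

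Genes known as AP-1 targets in other cells were largely under the floor. Of 29 listed, 11 had a value in U266, with 1 at least 1.5-fold higher, 0 lower and a median of 0.13, and 12 had one in K562, with 1 higher, 0 lower and a median of 0.02. In U266 the 1 gene was BCL2L11, which encodes the pro-apoptotic protein BIM, at 3223 with atovaquone against 1679 with vehicle, a log2 ratio of 0.95. IL6, the growth factor of myeloma cells, followed at 0.46. In K562 the 1 gene was VEGFA, at 2381 with atovaquone against 892 with vehicle, a log2 ratio of 1.43. The collagenase and stromelysin genes MMP1 and MMP3 were under the floor on all 4 arrays.

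Other immediate early genes were often higher with atovaquone in U266, as JUN and FOS were. Of 27 listed, 25 matched a probe set with 1 gene symbol. In U266, 21 had a value, with 10 at least 1.5-fold higher and 0 lower and a median of 0.30. Over all genes in U266, 1.00% were at least 1.5-fold higher and 0.142% lower. In K562, 18 had a value, with 2 higher, 2 lower and a median of −0.01, against 1.60% higher and 0.661% lower over all genes. The list was chosen with earlier results of these data known, so its count is a description and not a test. The 2 higher in K562 were PPP1R15A at 0.77 and SGK1 at 0.73, and the 2 lower were IER3 at −0.73 and KLF10 at −0.72. In U266 the largest were 3 orphan nuclear receptor genes and DUSP1. NR4A2 had 4843 with atovaquone against 187, under the floor, with vehicle in U266, and was at least 14.7-fold higher. DUSP1 had 3665 with atovaquone against 408 with vehicle, and was 9.04-fold higher. NR4A3 and NR4A1 were also under the floor with vehicle, with lower bounds of 2.94 for NR4A3 and 2.86 for NR4A1 on the log2 scale. In K562 NR4A2 and NR4A3 were under the floor on both arrays, and NR4A1 had 362 with atovaquone against 394 with vehicle.

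**Figure D4:**
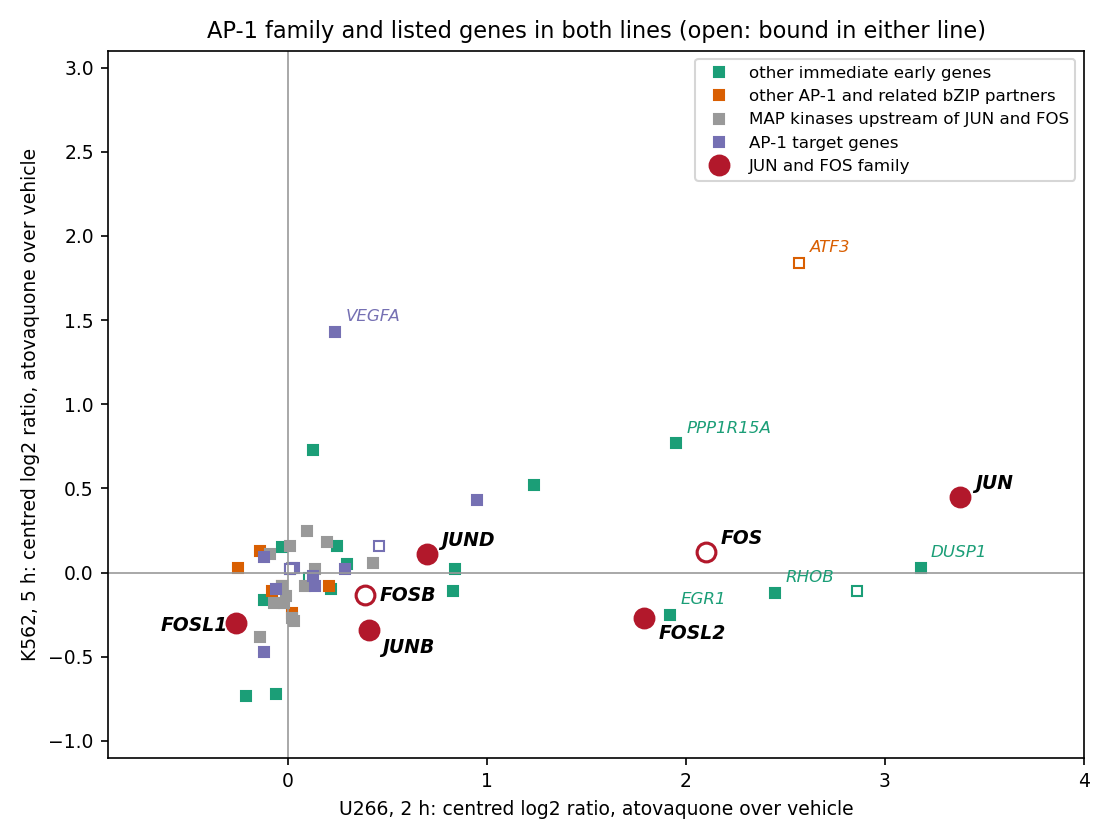
Centred log2 ratio of atovaquone over vehicle in U266 at 2 h (horizontal axis) against K562 at 5 h (vertical axis). Points are members and listed immediate early genes, basic leucine zipper partners, MAP kinase genes and AP-1 targets with a ratio or bound in both lines. Other genes are not drawn. JUN, FOS and FOSL2 lie far right and between −0.27 and 0.45 on the vertical axis, close to DUSP1 and RHOB, whereas the ATF3 bound is high on both axes.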

How the data were processed

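Total RNA of U266 and K562 cells was made into biotinylated cRNA with Affymetrix's standard steps, per the labels' protocols. The authors' deposited values are processed array intensity per probe set on a linear scale. How they were normalised, and with which software, is not given in the sources used here. Of 33252 probe sets, 21214 were listed in the platform annotation, 19460 of them with 1 gene symbol, and a gene with several was represented by the brightest. Values were put on the log2 scale, those under each array's 40th percentile over listed probe sets were raised to it and treated as bounds, and log2 ratios were centred on their median. With 1 array per group no test could be made, and counts at 1.5-fold are given as sizes and not as tests. A bound counted where it passed that fold. Sequences came from RefSeq on GRCh38.p14. The calculation was tested on simulated data with known folds placed in bright probe sets only. Known folds near the floor, and those that give bounds, were not simulated. Python 3.11.15, numpy 2.4.6 and pandas 2.3.3 were used. Members, gene lists and motifs were chosen with earlier results of these data known. Named genes were all members, up to 4 of each list by size of ratio, and the 3 nearest in pattern to each member above the floor on all arrays, of which the text gives some. Others named for their role are MAPK8, MAPK9, CREB1, ATF2, FBXW7, COP1, MMP1 and MMP3. Alternatives were other floors, quantile normalisation, no centring, the mean of a gene's probe sets, and a pseudocount of 50.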

Additional observations from a re-analysis of the deposited data

How the results depend on the processing

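The 4 members at least 1.5-fold higher in U266 and the 0 lower, and the 0 higher and 0 lower in K562, were the same counts under all 8 alternatives, and no member at least 1.5-fold different turned its sign. Of the values of single members recomputed under these alternatives, 190 moved by less than the SD between probe sets of a gene and 15 by more. The 15 came from other floors, except JUN at 3.22 and the FOS bound at 1.95 in U266 with the pseudocount of 50. Under a floor at the 60th percentile the median over members with a value was 0.88 in U266 and −0.50 between vehicle arrays, and FOSB and BATF had no U266 ratio and FOS, FOSB, FOSL2 and BATF no K562 ratio, so that the K562 counts of 0 then rested on 4 members. That floor gave 0 members higher between vehicle arrays. With the floor at the 20th percentile, over all probe sets or absent, 2 members were lower in U266 than in K562 vehicle cells, FOS being added to JUND.

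Counts over all genes moved with the floor too. In U266 at 1.5-fold, 66 were higher and 5 lower at the 60th percentile, 37 lower at the 20th, and 211 higher and 105 lower with no floor. At 2-fold, 73 were higher and 20 lower with no floor, 7 lower at the 20th percentile and 4 lower with the floor over all probe sets, against 45 and 1 at the 40th. In K562 at 1.5-fold, 92 were higher at the 60th percentile, and 363 were higher and 186 lower with no floor. At 2-fold, 59 were higher at the 20th percentile, 6 lower at the 60th, and 78 higher and 30 lower with no floor, against 38 and 14. Between vehicle arrays at 1.5-fold, 1664 were higher and 1377 lower at the 60th percentile, and 3557 lower with no floor. At 2-fold these were 746 and 605, and 2366 and 1928 with no floor, against 1426 and 1098. No paired analysis was possible because each group has 1 array, and for the same reason no array could be left out.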
